A study of Mus musculus with 177 samples.

Results

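The genes described here are 8 genes of cholesterol synthesis (Hmgcs1, Idi1, Fdft1, Sqle, Lss, Cyp51, Msmo1 and Insig1), measured in 3 organs of newborn mice (lung, brain, eye) after low oxygen and graded reoxygenation. They were chosen by name, as probe sets annotated to exactly 1 gene, and the probe set with the highest mean was taken for each gene in each tissue. They are 8 of the 19937 genes measured in this way, and all 8 were present in all 3 tissues. The mice were C57BL/6 pups at postnatal day 7, 62 in the design text. Pups spent 120 min at an inspired oxygen fraction of 0.08 (hypoxia) or 0.21 (normoxia), then 30 min at 21, 40, 60 or 100% oxygen, then 150 min in air before the organs were taken. The hypoxia groups are written H21, H40, H60 and H100, where the number is the percentage of oxygen breathed for 30 min, and the normoxia groups N21 and N100. No gene was altered and no drug is named in the labels, and N21 is the group that breathed air throughout. The replicates are separate samples in the labels, which do not say that each came from another animal, so p-values measure the spread between these samples. Whole tissue was studied, so fewer cells of a type and less RNA per cell cannot be told apart.

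Cholesterol is built from acetyl-CoA. Hmgcs1 makes HMG-CoA near the entry of the pathway, Idi1 isomerises isopentenyl diphosphate, and Fdft1 (squalene synthase) joins farnesyl units into squalene. Sqle oxidises squalene, Lss closes the rings to lanosterol, and Cyp51 and Msmo1 remove methyl groups from the sterol. Sqle, Cyp51 and Msmo1 use molecular oxygen. When membrane sterol is low, the SREBP2 factor is released to the nucleus and raises all of these genes. Insig1 makes no sterol. It is the retention protein that holds the SCAP and SREBP complex in the endoplasmic reticulum, and it is an SREBP target itself. The developing brain makes its own cholesterol, much of it for myelin.

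The groups held 9 to 12 arrays each in lung, 9 to 11 in brain and 9 to 11 in eye, 177 arrays in all. The profile of 3 arrays of the H40 groups was closest to a tissue other than the one on the label, so these were left out: the lung array numbered 10 was closest to brain (r = 0.986 with the brain profile), the brain array numbered 7 to eye (r = 0.960) and the eye array numbered 9 to lung (r = 0.957). On the lung array all 8 cholesterol genes lay outside the range of the other H40 lungs. On the brain array 6 of 8 lay outside the other H40 brains, and on the eye array 4 of 8 outside the other H40 eyes. The share of all genes outside these ranges was not computed, so these counts show nothing particular to the cholesterol genes. On the eye array Cyp51 stood at 5.96, below both the other H40 eyes (7.51 to 7.95) and the H40 lungs (6.29 to 7.03). On the lung array Cyp51 stood at 9.35, against 6.29 to 7.03 on the 9 other H40 lung arrays and 9.03 to 9.40 on the H40 brain arrays. That left 60 lung, 58 brain and 56 eye arrays. A further 1 lung, 3 brain and 5 eye arrays correlated under 0.98 with the median profile of their own tissue and were kept. Tissue markers matched the labels on the arrays kept: the type 2 alveolar cell gene Sftpc averaged 14.22 in lung, the neuronal gene Stmn2 13.15 in brain and the lens gene Cryaa 14.21 in eye.

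The promoters were searched for fixed letters of sequence elements known for SREBP2 target genes. Promoters of 6 of the 8 members were matched (250 bases before to 50 after the start, RefSeq, GRCm38.p6), namely Hmgcs1, Idi1, Lss, Cyp51, Msmo1 and Insig1. The letters searched on both strands were the sterol element core TCACNCCAC, the CCAAT box bound by NF-Y, and the Sp1 box GGGCGG, and they share no base with each other in the promoters printed here. Shown are Hmgcs1, the 1 member promoter with the sterol core, Idi1 and Msmo1, the pair whose levels went together most closely in lung, and Insig1, whose correlation with those 3 genes was below 0 there. Capitals mark any of the searched letters.
Hmgcs1, chr13:119690101-119690400, plus strand: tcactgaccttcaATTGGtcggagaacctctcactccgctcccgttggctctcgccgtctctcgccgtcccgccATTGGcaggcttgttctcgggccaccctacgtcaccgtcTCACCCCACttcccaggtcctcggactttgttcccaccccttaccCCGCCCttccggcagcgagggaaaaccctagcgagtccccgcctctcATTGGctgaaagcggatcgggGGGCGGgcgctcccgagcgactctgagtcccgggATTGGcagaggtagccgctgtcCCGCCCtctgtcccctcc
Idi1, chr13:8885356-8885655, plus strand: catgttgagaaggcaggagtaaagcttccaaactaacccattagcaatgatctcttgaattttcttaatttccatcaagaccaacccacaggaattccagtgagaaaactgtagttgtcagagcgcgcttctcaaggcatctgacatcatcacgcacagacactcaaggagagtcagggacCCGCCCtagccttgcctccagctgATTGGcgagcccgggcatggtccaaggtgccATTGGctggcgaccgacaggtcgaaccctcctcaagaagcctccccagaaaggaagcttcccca
Msmo1, chr8:64733529-64733828, minus strand: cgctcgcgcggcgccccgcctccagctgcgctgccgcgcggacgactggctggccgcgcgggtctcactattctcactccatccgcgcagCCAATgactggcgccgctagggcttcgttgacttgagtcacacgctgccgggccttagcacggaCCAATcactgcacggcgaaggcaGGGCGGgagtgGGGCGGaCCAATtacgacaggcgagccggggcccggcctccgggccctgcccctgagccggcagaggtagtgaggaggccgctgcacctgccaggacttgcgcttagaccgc
Insig1, chr5:28071162-28071461, plus strand: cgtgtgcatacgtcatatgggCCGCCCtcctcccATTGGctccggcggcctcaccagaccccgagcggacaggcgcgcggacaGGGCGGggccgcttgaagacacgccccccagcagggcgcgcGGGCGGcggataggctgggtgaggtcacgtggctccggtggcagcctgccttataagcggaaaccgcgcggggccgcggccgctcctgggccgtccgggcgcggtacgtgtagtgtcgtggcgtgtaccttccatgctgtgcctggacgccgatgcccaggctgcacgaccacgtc
The CCAAT box was found in 6 of the 6 member promoters and in 37.4% of all 32851 promoters of the same length. The Sp1 box was found in 6 of 6, against 35.7% of all. The sterol core was found in 1 of 6, against 1.24% of all. Hmgcs1 held 4 CCAAT boxes and Msmo1 held 3. These are matches of letters and no measure of binding. A sterol element with other letters, or outside the stretch searched, would not be counted, so a promoter without the core may still hold one.

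The levels of these genes differed widely between the tissues. The tissues may have been normalized separately (array medians of 6.25 in lung, 6.07 in brain and 6.35 in eye, log2), so levels are given side by side and were not tested across tissues. Over the normoxia arrays, Hmgcs1 averaged 12.22 ± 0.22 in brain (SD, n = 18), 10.10 ± 0.25 in eye (n = 18) and 9.26 ± 0.21 in lung (n = 19), on the RMA log2 scale. Brain was the highest tissue for all 8 genes. The normoxia brain arrays did not overlap the lung arrays for 5 of 8 genes (Hmgcs1, Fdft1, Sqle, Cyp51 and Msmo1), nor the eye arrays for 6 of 8 (the same 5 and Idi1). Over all 21640 probe sets with 1 gene, 14.8% lay wholly above lung in brain and 9.97% wholly above eye. The gap was widest for Hmgcs1, 2.96 above lung in log2 units, and narrowest for Insig1, 0.88 above lung. Eye lay above lung for 7 of 8 genes, by 0.51 for Idi1 to 1.13 for Cyp51, and Insig1 lay 0.22 lower in eye (-0.22). Cyp51 was the 1 gene whose eye arrays all stood above the lung arrays (7.58 to 8.15 against 6.06 to 7.36), as 11% of all probe sets did. The plot of levels by tissue and group shows brain highest in every group for all 8 genes.

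**Figure D1:**
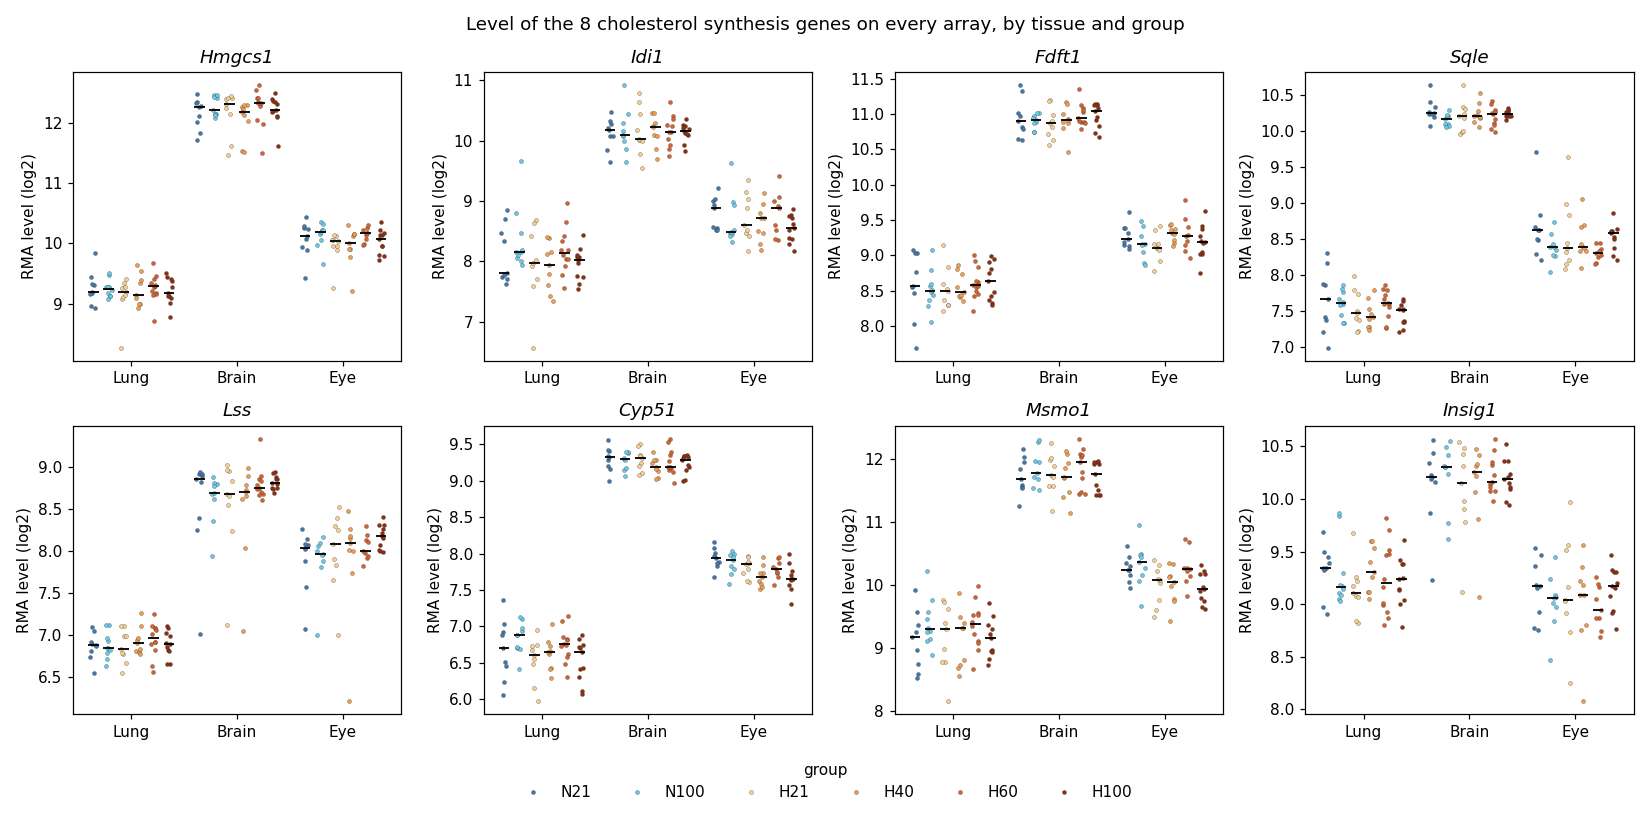
RMA level (log2, vertical axis) of each cholesterol synthesis gene on every array kept, by tissue and, within a tissue, by group from N21 to H100; points are arrays and black bars group medians. Brain is highest for all 8 genes, while the 6 groups of a tissue overlap, and the lowest Lss values in brain (7.02 to 7.12) belong to 3 arrays of 3 different groups.

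Within a tissue the groups lay close together. Ranked by mean, neighbouring groups differed by less than 1 within-group SD in all 24 gene and tissue combinations (largest gap 0.922 SD, Msmo1 in eye). The whole span from the lowest to the highest group mean was under 1 SD in 7 of 8 genes in lung, 8 of 8 in brain and 5 of 8 in eye. It was widest for Cyp51 in eye (1.83 SD), followed by Msmo1 in eye (1.30 SD), Sqle in eye (1.15 SD) and Cyp51 in lung (1.10 SD). For single arrays, the range was up to 3.10 log2 units, for Idi1 in lung.

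No cholesterol synthesis gene passed an adjusted p of 0.05 in any comparison. The question asked was whether 120 min of low oxygen, followed by air or by more oxygen, changed the transcript of these genes after the 150 min in air, and 27 comparisons were fitted with limma, with p-values adjusted over all 19937 genes. For all hypoxia groups against both normoxia groups, 0 of 8 members were called in lung, where 1.66% of all genes were called (331), 0 of 8 in brain (0.0853% of all, 17 genes) and 0 of 8 in eye (0.0853%, also 17 genes). At an unadjusted p under 0.05 stood 0 members in lung, 0 in brain and 2 in eye, while 1794, 634 and 1001 genes of all stood there. The median change of the members was -0.06 in lung, -0.02 in brain and -0.06 in eye, on the log2 scale, beside 0.01, -0.00 and 0.00 for all genes.

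Hmgcs1, the first enzyme among the members, had small differences in all 3 tissues. In lung it ran from 8.93 to 9.84 in normoxia (median 9.23, n = 19) and from 8.27 to 9.67 after hypoxia (median 9.21, n = 41). Its change there was -0.05 ± 0.07 (SE, log2), in brain -0.04 and in eye -0.08. The arrays of both arms overlapped along nearly their whole range, and the difference was not called (adjusted p = 0.98 in lung).

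Idi1 had the largest pooled difference in lung. Normoxia lungs ran from 7.63 to 9.67 (median 8.16) and hypoxia lungs from 6.57 to 8.96 (median 8.04), with 31 of 41 hypoxia arrays below the normoxia mean of 8.24. The difference was -0.23 ± 0.12 (95% interval -0.48 to 0.01, p = 0.058, adjusted p = 0.59). Both arms overlapped, and a high array of N100 (9.67) and a low array of H21 (6.57) marked their ends. Without the lung array that stands apart, which is that H21 array, the difference was -0.19, and in the first stretch of the sample records alone it was -0.13.

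The brightest Idi1 probe set needs a reservation. Its number stands among probe sets of chromosome 2 genes (39 of its 40 nearest numbers), whereas Idi1 lies on chromosome 13, at 8885606 to 8892396 in GRCm38.p6. The other Idi1 probe set stands among chromosome 13 genes (34 of 40) and was dimmer in every tissue, with a lung mean of 7.09 against 8.08. After group means were removed, the 2 probe sets correlated at only 0.04 in lung, 0.48 in brain and 0.22 in eye. The dimmer set gave -0.16 ± 0.14 for hypoxia in lung, -0.05 in brain and 0.01 in eye, none of them called. Which transcripts each set reads was not tested. Fdft1 also has 2 probe sets, both numbered among chromosome 14 genes, where the gene lies, and these correlated at 0.82 in lung, 0.60 in brain and 0.53 in eye.

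Fdft1, which makes squalene, differed by 0.04 ± 0.08 in lung, 0.01 ± 0.06 in brain and 0.01 ± 0.06 in eye. In lung it ran from 7.70 to 9.08 in normoxia (median 8.55) and from 8.22 to 9.15 after hypoxia (median 8.55). The medians were equal at this precision. Lss, which closes the sterol rings, was on the higher side in all 3 tissues, by 0.04 ± 0.05, 0.08 ± 0.12 and 0.13 ± 0.11, and was called in none (adjusted p = 0.98, 1.00 and 1.00). In brain 35 of 40 hypoxia arrays stood above the normoxia mean of 8.59, although the hypoxia median (8.75) was below the normoxia median (8.79). The lowest normoxia array stood at 7.02 there. In eye 32 of 38 stood above the normoxia mean of 7.90, while the medians were 8.02 in normoxia and 8.10 after hypoxia. The lowest normoxia array there stood at 6.99 and is not among the 5 eye arrays that stand apart. Without those 5, a setting chosen after seeing the data, the difference was 0.19 (p = 0.0076, adjusted p = 0.49).

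Sqle, the first of the oxygen-using enzymes, ran in lung from 6.99 to 8.31 in normoxia (median 7.62) and from 7.20 to 7.98 after hypoxia (median 7.50). The difference was -0.12 ± 0.07 (p = 0.081, adjusted p = 0.68), with 29 of 41 hypoxia arrays below the normoxia mean. The hypoxia arrays lay wholly inside the normoxia range. In brain the difference was -0.00 ± 0.04 and in eye -0.05 ± 0.09.

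Cyp51, lanosterol demethylase, had the smallest p-values of the 8 genes. In eye, the arrays ran from 7.68 to 8.15 in N21 (median 7.94, n = 9), 7.58 to 8.03 in N100 (7.92, n = 9), 7.60 to 7.97 in H21 (7.86, n = 9), 7.51 to 7.95 in H40 (7.68, n = 9), 7.57 to 7.95 in H60 (7.79, n = 9) and 7.31 to 7.99 in H100 (7.65, n = 11). Every hypoxia group had a lower median than both normoxia groups, and 32 of 38 hypoxia arrays lay below the normoxia mean of 7.90, but all ranges overlapped. The difference was -0.16 ± 0.04, a fold of 0.894 (95% interval 0.840 to 0.951), with p = 0.00060 and an adjusted p of 0.22. H100 stood lowest against N21, at -0.27 ± 0.07 (p = 0.00029, adjusted p = 0.92). In lung Cyp51 ran from 6.06 to 7.36 in normoxia (median 6.88) and 5.97 to 7.14 after hypoxia (median 6.66), a difference of -0.15 ± 0.08 (p = 0.051, adjusted p = 0.56), with 30 of 41 hypoxia arrays below the normoxia mean, and -0.05 in the first stretch of the records alone. In brain it was -0.04 ± 0.04.

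Msmo1, the sterol C4-methyl oxidase, was also on the lower side in eye. Its arrays there ran from 9.96 to 10.62 in N21 (median 10.25), 9.67 to 10.96 in N100 (10.37), 9.49 to 10.40 in H21 (10.08), 9.43 to 10.35 in H40 (10.05), 9.83 to 10.73 in H60 (10.25) and 9.62 to 10.31 in H100 (9.94). H60 stood level with N21, at 0.01 ± 0.13, and the other 3 hypoxia groups were lower, although all ranges overlapped. The pooled difference was -0.24 ± 0.08, a fold of 0.849 (0.760 to 0.948), with p = 0.0042, an adjusted p of 0.53 and 31 of 38 hypoxia arrays below the normoxia mean of 10.29. In lung it was -0.06 ± 0.11 and in brain -0.03 ± 0.08. The plot of the eye arrays shows both genes. The differences of Cyp51 and Msmo1 kept an unadjusted p under 0.05 when each eye array was left out in turn (largest 0.0017 and 0.014), and in the first stretch of the sample records alone they were -0.16 (p = 0.0066) and -0.19 (p = 0.029).

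**Figure D2:**
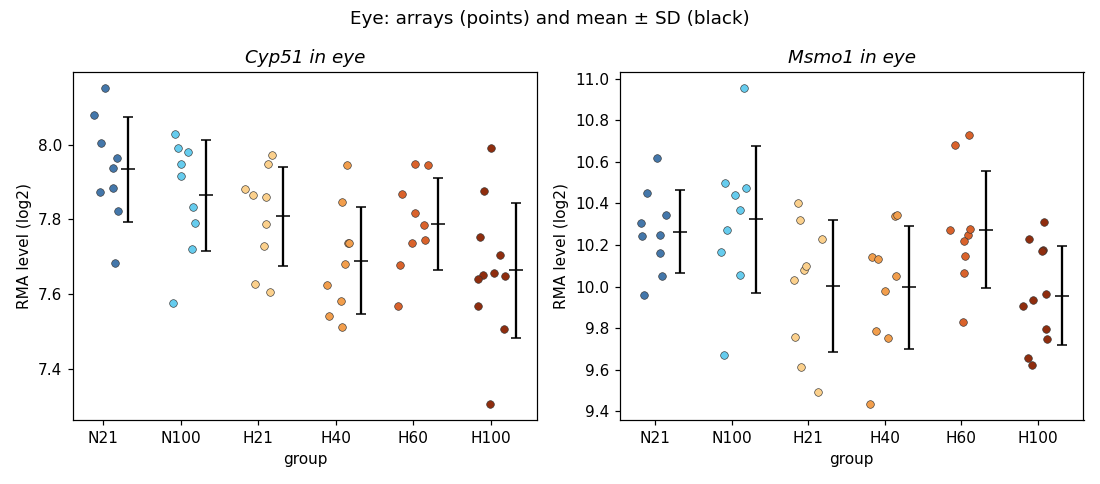
Level of Cyp51 and Msmo1 in eye (RMA log2, vertical axis) in the 6 groups; points are arrays, and black marks are the mean ± SD. The Cyp51 means fall between 7.66 (H100) and 7.93 (N21) and the ranges of all groups overlap; neither gene passed an adjusted p of 0.05.

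Insig1, the sterol sensor partner, differed by -0.07 ± 0.07 in lung, -0.03 in brain and -0.02 in eye. In eye 19 of 38 hypoxia arrays lay below the normoxia mean and 19 above. It ran from 8.46 to 9.53 in normoxia (median 9.08) and from 8.08 to 9.97 after hypoxia (median 9.08). The 95% intervals of the pooled difference show what the 8 genes could still hide. They reached from a fold of 0.718 (Idi1) to 1.15 (Fdft1) in lung, from 0.864 to 1.25 in brain and from 0.760 (Msmo1) to 1.27 (Lss) in eye.

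**Figure D3:**
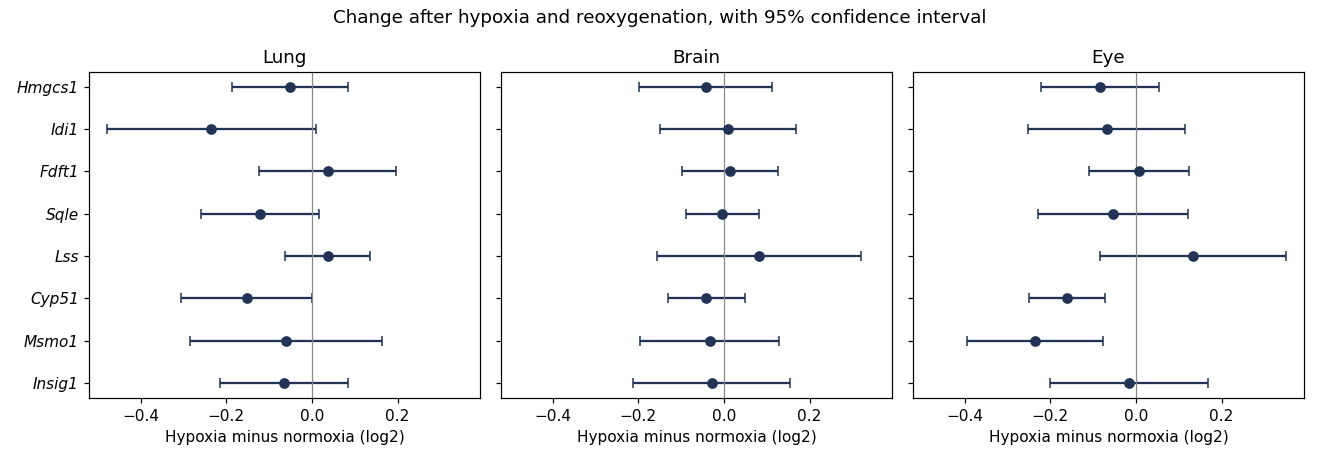
Difference of all hypoxia groups from both normoxia groups (log2, horizontal axis) for each gene in lung, brain and eye; points are estimates, and bars are 95% confidence intervals. In eye the intervals of Cyp51 and Msmo1 lie below 0, before any adjustment for the number of genes; in lung and brain all 8 intervals include 0.

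The oxygen given after hypoxia was examined group by group against N21, and again 0 of 8 members were called in each comparison with limma. In lung, all genes called amounted to 0.0502% for H21 (10 genes), 0.00502% for H40 (1 gene), 0% for H60 (0 genes, 695 at an unadjusted p under 0.05) and 0.0201% for H100 (4 genes). In brain they were 0% for each of H21, H40, H60 and H100, where limma gave 265, 351, 641 and 691 genes at an unadjusted p under 0.05. In eye they were 0.00502% for H21 (1 gene) and 0% for H40, H60 and H100, with 421, 1076 and 1058 genes unadjusted. These comparisons share the N21 arrays. The members with an unadjusted p under 0.05 were all in eye: Msmo1 after H21 (-0.26), Cyp51 (-0.24) and Msmo1 (-0.27) after H40, Sqle after H60 (-0.36), and Cyp51 (-0.27) and Msmo1 (-0.31) after H100. All were lower, and their adjusted p-values lay at 0.90 or above.

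Full oxygen without hypoxia was followed by no called member. For N100 against N21, limma called 0% of all genes in each tissue (328 in lung, 806 in brain and 777 in eye at an unadjusted p under 0.05), and 0 of 8 members stood there in any tissue. Sqle was nearest, at -0.13 ± 0.07 in brain (p = 0.063) and -0.28 ± 0.14 in eye (p = 0.056). For H100 against N100, 0.105% of genes were called in lung (21), 0.01% in brain (2) and 0% in eye (0 genes, 1734 unadjusted). Members with an unadjusted p under 0.05 were Cyp51 (-0.31 ± 0.12, p = 0.012) and Idi1 (-0.40 ± 0.19, p = 0.043) in lung, and Msmo1 (-0.37 ± 0.12, p = 0.0046) and Cyp51 (-0.20 ± 0.07, p = 0.0057) in eye. The adjusted p-values were 0.58, 0.81, 0.44 and 0.44. Position in the sample records was uneven between these groups and was not in the model for these values. In brain and eye, N100 had 8 arrays in the first stretch and 1 later, H100 6 and 5, and N21 5 and 4. In lung, N100 had 8 and 2, H100 6 and 5, and N21 5 and 4. In eye the later records were lower in Msmo1 (-0.34 ± 0.07) and higher in Sqle (0.28 ± 0.08).

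No slope over the oxygen percentage within the hypoxia groups was called for a member. Over all genes 0% were called in lung, brain and eye (347, 1285 and 1138 unadjusted, limma), and the largest member slope, Lss in brain, was 0.32 from the lowest to the highest oxygen (p = 0.078, adjusted p = 0.75). Without the 3 brain arrays that stand apart, of which 2 are in H21 and H40, it was 0.11 ± 0.10 (p = 0.27, adjusted p = 0.77). The interaction, which asks whether hypoxia acted differently under 100% oxygen than under air, also gave 0% of all genes in the 3 tissues (479, 566 and 788 unadjusted, limma) and 0 of 8 members. Across the 27 comparisons, 12 of the 216 member tests (5.56%) had an unadjusted p under 0.05, beside 4.11% of the tests of all genes, and all 12 were lower. These tests share arrays with each other.

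Tissues were then compared in the size of the pooled difference. The 177 arrays come from 62 mice, so the tissues share mice, but the labels do not say which arrays do, and the test treats the arrays as independent. Over 21640 probe sets, 0.411% were called for lung against brain (89), 0.36% for lung against eye (78) and 0.00924% for brain against eye (2), and 0 of 8 members in each. The member nearest to a difference was Idi1, lower by a further 0.24 ± 0.14 in lung than in brain (-0.24, p = 0.091). For Cyp51 the difference of brain from eye was 0.12 ± 0.08 (95% interval -0.04 to 0.28, p = 0.15), and for Msmo1 0.20 ± 0.14 (-0.06 to 0.47, p = 0.13). The smaller values of Cyp51 and Msmo1 in brain are therefore not shown to differ from those in eye.

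The other genes of the pathway were looked at next. Of the other enzymes of the mevalonate arm 0 of 5 were called in any tissue for hypoxia against normoxia, and of those after squalene 0 of 7. Taken with the 7 enzymes among the members, 19 enzymes were measured, 9 of them below 0 in lung, 10 in brain and 15 in eye, beside 44.2%, 52.2% and 48.2% of all genes. At an unadjusted p under 0.05 in eye stood 3 of the 19 (15.8%, beside 5.02% of all genes), and all 3 were lower: Msmo1, Cyp51 and Sc5d, which desaturates the sterol ring (-0.14 ± 0.04, p = 0.0011, adjusted p = 0.26). In lung there were 2 of 19 (10.5%, beside 9.0% of all genes), Dhcr7, the last reductase of the pathway (-0.13 ± 0.04, p = 0.0028, adjusted p = 0.11), and Pmvk, phosphomevalonate kinase (0.23 ± 0.08, p = 0.0052, adjusted p = 0.16). In brain there were 0 of 19 at an unadjusted p under 0.05 and 0 called, beside 3.18% of all genes at that p.

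The regulators of the pathway were not called. Sterol sensing and SREBP processing genes gave 0 of 5 in each tissue (3 of 5 at an unadjusted p under 0.05 in lung, 0 in brain and eye), with Scap, which escorts SREBP to the Golgi, at 0.11 ± 0.05 and Insig2, the partner of Insig1, at 0.10 ± 0.05 in lung. The third of these in lung, Srebf2, which encodes SREBP2, was on the lower side, at -0.10 ± 0.05 (p = 0.046, adjusted p = 0.54). Other SREBP2 targets of uptake and transport gave 0 of 4, with Stard4, a sterol carrier, at 0.14 ± 0.06 in brain (p = 0.018, adjusted p = 1.00). LXR targets and sterol efflux genes gave 0 of 8, with Nr1h3 (LXR alpha) at 0.10 ± 0.07 in lung and 0.12 ± 0.07 in eye, and 0 of 8 at an unadjusted p under 0.05 in any tissue. Of 10 genes of fatty acid synthesis, a related SREBP1 programme, 1 fell in lung and 0 in brain or eye: Fads2, the delta-6 desaturase, by -0.23 ± 0.05 (adjusted p = 0.0036). Acss2, acetyl-CoA synthetase, was at 0.20 ± 0.06 in lung and was not called (adjusted p = 0.12).

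The response to low oxygen itself was visible on the same lung arrays. Of 10 targets of the hypoxia factor HIF, 5 rose in lung and 0 were called in brain or eye by limma (5 and 3 at an unadjusted p under 0.05). Adm (adrenomedullin) rose by 0.71 ± 0.10 (adjusted p = 1.3e-06), Hif3a by 0.58 ± 0.14 and Bnip3 by 0.36 ± 0.09. P4ha2 and Ndrg1 also rose. In brain Pdk1, which shuts pyruvate away from the mitochondria, was at 0.18 ± 0.04 with an adjusted p of 0.059.

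Markers of the cells in each organ were followed on the same arrays. In brain 9 of 9 oligodendrocyte markers, genes of the myelinating cells that make much cholesterol, lay below 0 for hypoxia (median -0.20, 0 called), and in eye also 9 of 9 (median -0.10, 0 called). Averaged over the list, brain arrays ran from 7.30 to 9.73 in normoxia and from 7.33 to 9.30 after hypoxia, and eye arrays from 7.24 to 8.04 and from 6.93 to 7.94. The rod and retina markers in eye lay below 0 in 5 of 6 (median -0.15, 0 called), with list averages of 9.42 to 10.72 in normoxia and 9.19 to 10.64 after hypoxia. In lung 6 of 6 brown fat markers lay below 0 (median -0.33, 0 called), with list averages of 5.41 to 7.87 and 5.19 to 8.63. The lowest of these brown fat markers, Elovl3, averaged 4.46, beside an array median of 6.83 over the genes tested in lung. In lung 1 of 8 astrocyte markers (Aldh1l1, 0.22 ± 0.05, adjusted p = 0.0043) and 1 of 8 neuron markers (Stmn2, 0.30 ± 0.07, adjusted p = 0.0072) rose. Over all genes, 52.2% lay below 0 in brain, 48.2% in eye and 44.2% in lung. Genes of a list were measured on the same arrays, so their directions are not independent. Directions of the other marker lists are not given here. The part of the markers in the values of the cholesterol genes was not tested.

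Pairs of members also varied together from array to array, beyond the groups, with the highest median correlation in lung and the lowest in eye. After group means were removed, 28 pairs were correlated in each tissue, 84 in all, with permutation tests of 100000 resamples adjusted over the 84. In lung 22 of 28 pairs had r above 0, 19 were positive at an adjusted p under 0.05 and 1 was negative, with a median r of 0.47. In brain 21 of 28 had r above 0, and 11 were positive and 3 negative at that p (median 0.24). In eye 17 of 28 had r above 0, and 8 were positive and 3 negative (median 0.09). Over all pairs of genes, r was above 0 in 52.5%, 52.4% and 52.2% in the same order of tissues, and above 0.5 in 5.83%, 4.12% and 3.55%, beside 11, 5 and 2 of the 28 member pairs. Record position moved single pairs. With it removed as well, 18 of the 28 lung pairs were above 0.5 (3.60% of all pairs), 9 in brain (3.12%) and 3 in eye (3.17%). In lung Fdft1 and Insig1 then went from 0.47 to 0.10 and Hmgcs1 and Fdft1 from 0.12 to 0.49. The permutation tests do not take record position into account, and the share of all gene pairs that would pass them was not computed. The counts of pairs passing are therefore not shown to be particular to the members. Whether the tissues differ in these correlations was not tested.

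Idi1 and Msmo1 gave the closest pair in lung. Pearson r was 0.89 and Spearman rho 0.87 over 60 arrays (permutation p = 1e-05 for both, the smallest that 100000 resamples give, adjusted p = 5.6e-05 and 7.6e-05). Without the 2 arrays farthest in Idi1, r was 0.88, in the first stretch of sample records 0.90 (n = 38) and in the later records 0.91 (n = 22). Each was the other's closest gene among all 19936 others. The dimmer Idi1 probe set showed none of this, with r = -0.00 to Msmo1 in lung. In brain the pair gave r = 0.61 (rho 0.59, adjusted p = 5.6e-05, n = 58), 0.85 in the first records (n = 38) and 0.16 in the later ones (n = 20), so the relation did not hold within the later records, which include the 3 brain arrays that stand apart. It was 0.79 with record position removed as well, 0.73 without those 3 arrays and 0.55 without the 2 farthest. In eye it gave r = 0.49 (rho 0.40, adjusted p = 0.000455, n = 56), 0.76 in the first records (n = 37), 0.71 in the later (n = 19) and 0.37 without the 2 farthest.

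Hmgcs1 followed Msmo1 in lung and brain. In lung r was 0.81 (rho 0.81, permutation adjusted p = 5.6e-05), 0.77 without the 2 farthest arrays, and 0.79 and 0.83 in the first and later records. In brain r was 0.72 (rho 0.74, adjusted p = 5.6e-05), 0.74 without the 2 farthest, and 0.77 and 0.49 in the first and later records. Sqle and Cyp51 gave 0.68 in lung (rho 0.66, adjusted p = 5.6e-05; 0.65 without the 2 farthest, 0.55 and 0.65 by records), and of all genes Cyp51 was the closest to Sqle there. In eye the same 2 genes gave 0.02 (rho -0.12, permutation adjusted p = 0.90).

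Insig1 was correlated with the enzymes in both directions in lung. Its r was 0.47 with Fdft1 and 0.38 with Sqle (permutation adjusted p = 0.00060 and 0.0069), -0.09 and 0.53 in the first records, and 0.28 and 0.01 in the later ones, so neither relation held within both. Its r with Msmo1 was -0.30 (rho -0.30, permutation adjusted p = 0.037), but this was 0.07 in the first records and -0.32 in the later ones, and 0.03 once both group and record position were removed, so it did not hold within the first stretch. In brain Insig1 went with Lss, at r = 0.71 (rho 0.38, adjusted p = 5.6e-05 and 0.0096). That relation rests in part on 3 arrays: without the brain arrays that stand apart r was 0.24, without the 2 farthest in Lss 0.54, and by records 0.39 and 0.85. The same arrays turned the sign of Sqle against Lss in brain, from -0.33 over all arrays (rho 0.18, permutation adjusted p = 0.029 and 0.25) to 0.59 without them (n = 55), with 0.56 in the first records and -0.87 in the later. On these 3 arrays (N21 number 7, H21 number 8 and H40 number 10) Lss lay at 7.02 to 7.12 against 7.95 to 9.34 on the other 55, Insig1 at 9.07 to 9.23 against 9.62 to 10.57, and Sqle at 10.53 to 10.64 against 9.96 to 10.41. All 3 arrays fell outside the others in each of these genes, although they belong to 3 different groups. In eye Hmgcs1 and Sqle gave -0.54 (rho -0.45, permutation adjusted p = 0.00028), -0.44 without the 2 farthest, -0.08 and -0.84 by records and -0.20 without the 5 arrays that stand apart.

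**Figure D4:**
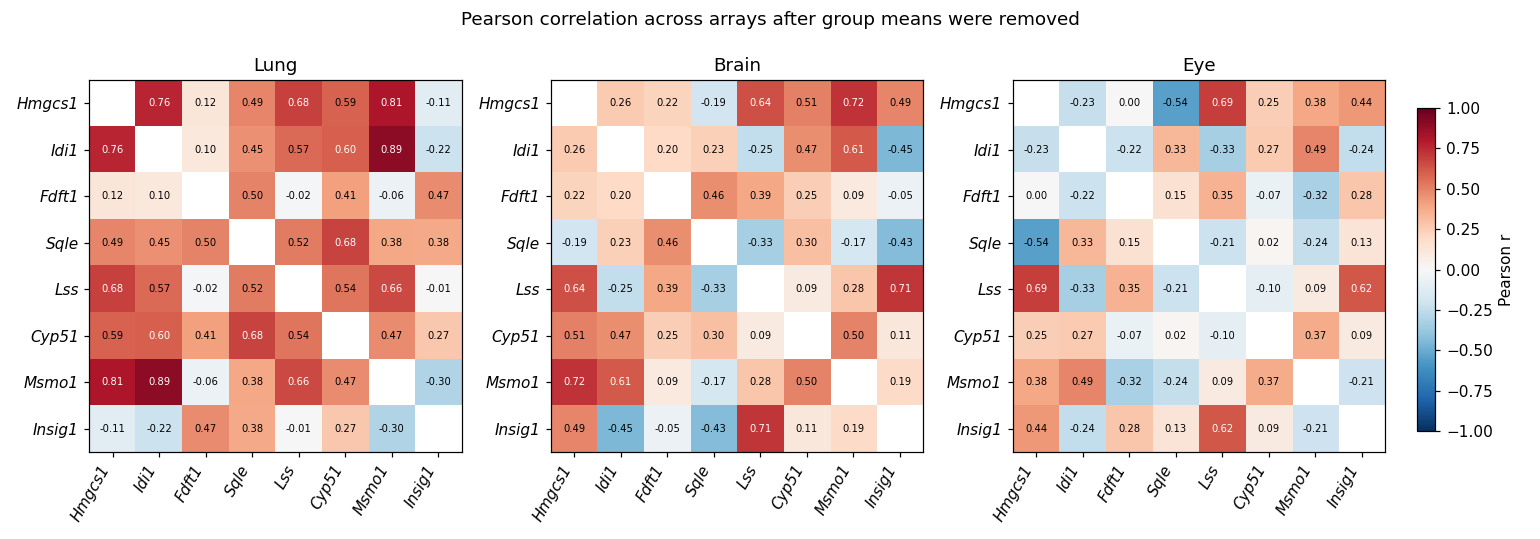
Pearson correlation (colour and number, scale at right from -1 to 1) of each pair of genes across the arrays of lung (n = 60), brain (n = 58) and eye (n = 56), after group means were removed. In lung Hmgcs1, Idi1, Lss, Cyp51 and Msmo1 are all positively correlated, up to 0.89 for Idi1 and Msmo1, while Fdft1 and Insig1 stand apart from several of them. For Fdft1 this did not hold with record position removed as well, where it gave 0.57 with Msmo1, 0.50 with Idi1, 0.49 with Hmgcs1 and 0.34 with Lss. Insig1 then gave 0.03 with Msmo1 and -0.03 with Idi1.

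The genes most like the mean of the 8 members were named in each tissue by their Pearson r after group means were removed, out of 19929 others and without a test. In lung (60 arrays) they were Nsdhl (0.74), a sterol dehydrogenase that works beside Msmo1 in removing the C4 methyl groups, Cyb5b (0.72), a cytochrome b5, Car13 (0.70), Rfc4 (0.69) and Metap1 (0.68). In brain (58 arrays) they were Arpc5 (0.88), Kpna1 (0.85), Ppp4r1l-ps (0.84), Hsd17b7 (0.84), a sterol 3-keto reductase of the same pathway, and Slc35b4 (0.83). In eye (56 arrays) they were Chaf1b (0.63), Eri1 (0.62), Pctp (0.61), Hdac1 (0.59) and Scd2 (0.58). With record position removed as well, Nup93 (0.79), Hsd17b7 (0.76) and Tsr1 (0.71) took the place of Car13, Rfc4 and Metap1 in lung, Gpr21 (0.85) that of Hsd17b7 in brain, and Ttc27 (0.65), Ppat (0.58) and Agfg2 (0.58) that of Eri1, Pctp and Hdac1 in eye. The 7 other enzymes after squalene had a median r of 0.53 in lung, 0.44 in brain and 0.35 in eye, beside -0.01, 0.05 and 0.04 for all genes, and 4, 2 and 4 of the 7 lay above the 95th percentile of all genes. The 5 other enzymes of the mevalonate arm had medians of 0.09, 0.01 and 0.16. Lowest of all 12 was Pmvk in lung (-0.31) and eye (-0.12), and Ebp, a sterol isomerase, in brain (-0.44). The 10 genes of fatty acid synthesis had medians of 0.38, 0.40 and 0.23, with 4, 3 and 4 above that percentile, and the 8 neuron markers in brain had a median of 0.34, with 3 above it. In brain the 9 oligodendrocyte markers had a median of -0.35 and the 8 astrocyte markers 0.29, with 0 above that percentile in either list. The 8 astrocyte markers in lung had a median of 0.35, with 2 above it.

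The order of the sample records moved with the level of several members. The labels call it no batch, but it falls into a first stretch and later ones, and with the group in the model 56.5% of all genes differed between them in lung, 44.8% in brain and 38.7% in eye at an adjusted p under 0.05 (limma). Msmo1 was lower in the later records in all 3 tissues, by -0.40 ± 0.10, -0.34 ± 0.07 and -0.34 ± 0.07 (adjusted p = 0.00039, 4.6e-05 and 4.8e-05). Fdft1 was higher in all 3, by 0.45 ± 0.05, 0.14 ± 0.05 and 0.17 ± 0.05 (adjusted p = 4.3e-10, 0.023 and 0.0092). Hmgcs1 was lower in brain (-0.25 ± 0.07) and eye (-0.23 ± 0.06) and not called in lung (-0.11 ± 0.06). Sqle was higher in brain (0.14 ± 0.04) and eye (0.28 ± 0.08). Insig1 was higher in lung (0.30 ± 0.06) and lower in brain (-0.23 ± 0.09). Cyp51, Lss and Idi1 were called in no tissue. For Msmo1 and Fdft1 these differences were larger than the pooled difference between hypoxia and normoxia in every tissue. The plot by record order shows the differences between records only. With the record position as a block, the difference of hypoxia from normoxia in eye was -0.15 for Cyp51 (p = 0.00073) and -0.21 for Msmo1 (p = 0.0025), and 0 of 8 members were called in any comparison.

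**Figure D5:**
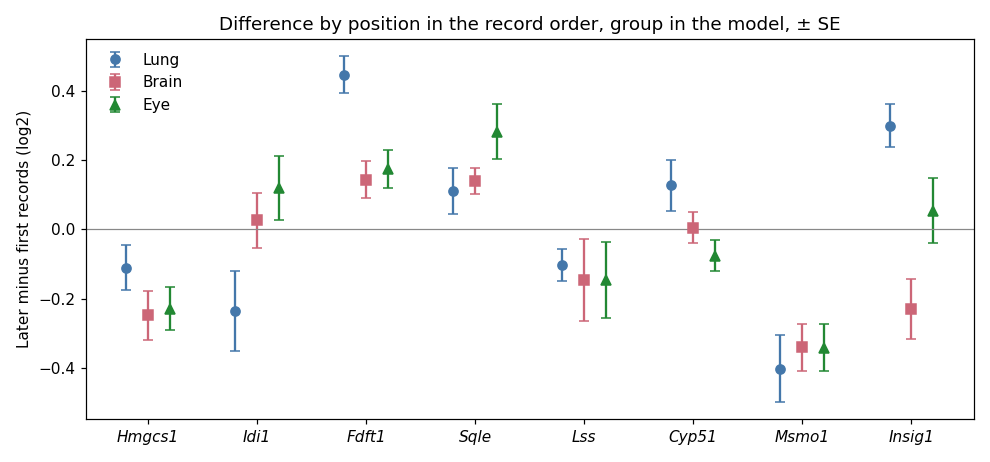
Difference of later from first sample records (log2, vertical axis) for each gene in lung, brain and eye, with the group in the model; points are estimates, and bars are ± 1 SE. Msmo1 lies below 0 and Fdft1 above 0 in all 3 tissues, up to 0.45 for Fdft1 in lung.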

How the data were processed

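RNA of lung, brain and eye was hybridised to Affymetrix Mouse Gene 1.0 ST arrays, from 10 ng of total RNA per the labels' protocols. The deposited log2 values were made by the authors with RMA, per the submitters' processing notes, and the version is not given in the sources used here. The array medians differ between the tissues, so these may have been normalized separately. RMA shrinks differences of dim genes, and array number, not depth, limits precision. The labels' protocol names a blood RNA kit, although solid tissue was stored.

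Of 34760 probe sets, 21640 had 1 gene symbol, 1321 had several and 11799 had none. The brightest probe set of each gene gave 19937 genes. A fit of the 6 groups of each tissue was made with limma 3.58.1 in R 4.3.3 (lmFit, eBayes), with Benjamini-Hochberg adjustment over all genes and a threshold of 0.05; every adjusted p in the text outside the correlations is from limma. The slope and interaction are contrasts of the same fit. The procedure was tested on simulated data. Intervals are at 95% confidence. Arrays with another tissue's profile were left out. Correlations were computed in Python 3.11.15 with NumPy 2.4.6 (two-sided permutation tests).

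The members and the gene lists were chosen with earlier results of these data known. The rule was to name the 8 members, every called gene of each other list, and the 5 genes most like the members. For a list with none called, it took the 2 genes with the largest change. The text names only part of these 2 (Apoe in lung is left out) and adds others, such as Srebf2 and Acss2 in lung. Of 134 list entries 11 were not matched and are not analysed here. Alternatives were array weights, a filter on dim genes, renormalization, the replicate number, record order or sex as covariates, other probe sets, fewer groups and leaving out arrays.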

Additional observations from a re-analysis of the deposited data

Results flagged for a closer look

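The 8 genes were examined in each group of 4 to 10 arrays for a single array far from the rest, 104 combinations of gene and group in all, and 12 had one. Chance gives about 1 in 20 for independent groups, and these combinations share arrays. In lung, Hmgcs1 on the H21 array numbered 1 was 8.27, against 9.08 to 9.40 on the others, and Idi1 on the N100 array numbered 6 was 9.67, against 7.95 to 8.81. In brain, Lss was low on the N21 array numbered 7 (7.02, others 8.25 to 8.95), the H21 array numbered 8 (7.12, others 8.24 to 9.03) and the H40 array numbered 10 (7.05, others 8.04 to 8.99). On that H40 array Insig1 was also low (9.07, others 9.81 to 10.48). In eye, Hmgcs1 was low on the H21 array numbered 9 (9.26, others 9.88 to 10.14) and the H40 array numbered 8 (9.21, others 9.78 to 10.31). Idi1 was high (9.64, others 8.32 to 8.98) and Lss low (6.99, others 7.82 to 8.17) on the N100 array numbered 6. Sqle was high on the N21 array numbered 7 (9.70, others 8.21 to 8.83), and Lss was lowest of all on the H40 array numbered 8 (6.21, others 7.74 to 8.48). Of these 12 values, those on the lung H21 array, the 3 brain arrays and the eye N21, H21 and H40 arrays belong to arrays that stand apart over all genes.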

How the results depend on the processing

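The number of members called was 0 in all 30 comparisons, in each of the 11 alternatives run on comparisons within a tissue and in the 4 run on differences between tissues. Of these alternatives, leaving out the arrays that stand apart and using the first records only were chosen after seeing the data. With each of 60 lung, 58 brain and 56 eye arrays left out in turn, the count for hypoxia against normoxia stayed at 0 to 0. The replicate block also gave 0 members. Same-numbered arrays of different groups deviated with a median r of 0.13, 0.13 and 0.03 in lung, brain and eye and minima of -0.51, -0.45 and -0.34. Arrays with other numbers had medians of -0.02, -0.02 and -0.03. The labels do not say whether the numbers pair the arrays, and these values do not settle it. Of the 24 pooled differences of single members, 11 changed sign in at least 1 alternative, 22 values in all, and none of these was called in any. The genes called over all genes for hypoxia against normoxia ranged more widely: in lung 331 became 95 with every array under its label, 834 with array weights, 504 with the record block and 23 in the first records only; in brain 17 became 41 with weights and 4 in the first records; in eye 17 became 53 with weights, 32 with the record block, 8 with every array under its label and 0 in the first records. Cyp51 in eye had adjusted p-values of 0.14 to 0.87 over the alternatives. Pooled intervals for the members allow folds of 0.718 to 1.27.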
